A study of Mus musculus with 36 samples.

Results

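Loss of Bod1L was examined in mouse cells grown as primed epiblast stem cells (EpiSC), by setting 2 knockout (KO) libraries against 2 wild-type (WT) libraries of the line named for that gene. The 4 libraries were chosen by cell type, line and genotype in the labels, out of 36 in the series, and every measured gene was compared. The KO libraries are titled EpiSC Bod1L KO Tamoxifen and the WT libraries EpiSC Bod1L WT, each with replicates 1 and 2 labelled as biological. Tamoxifen is named for the KO cells alone, so the effects of drug and of genotype cannot be told apart. The same holds in the rest of the series, where every KO library is titled Tamoxifen and no WT library is. Both groups grew in medium with Activin A and FGF2, and their source is given as Epiblast-like Stem Cells. How Bod1L was deleted and whether the replicates are separate clones is not given in the sources used here. The p-values therefore measure spread between cultures, estimated over all 36 libraries and not over these 4 alone. The wider series holds KO and WT cells named for 3 genes (Bod1L, Setd1a and Mll2) in 3 media: 2i (LIF with inhibitors of MEK and GSK3), FCS (LIF with fetal calf serum) and the EpiSC medium. Mll2 is another enzyme for histone H3 lysine 4, in a COMPASS complex of its own. The 2i and FCS cultures are labelled as embryonic stem cells, so cell type and medium change together between them and EpiSC. Single-end RNA-seq was counted per gene, and levels are given as CPM, counts scaled to a common library size.

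BOD1L is a subunit of the SETD1A complex, one of the COMPASS family of enzymes that place methyl groups on lysine 4 of histone H3 at the start of transcribed genes. It is also known as a protector of stalled replication forks. EpiSC correspond to the epiblast after implantation: they depend on Activin and FGF signalling, express primed genes such as Fgf5, and have switched off the naive genes that mark 2i cells.

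The 4 libraries held 31835792 and 33278793 gene counts in KO cells, against 25846320 and 34400362 in WT cells (24490158 to 40591108 over the 36 libraries). Replicate 1 and replicate 2 were further apart than KO and WT. Across 23501 genes the SD of the log2 difference between replicates was 1.11 in KO and 1.12 in WT cells, and that between KO and WT cells was 0.658 within replicate 1 and 0.686 within replicate 2. Summed over 6 feeder or mesenchymal markers (Col1a1, Col1a2, Col3a1, Thy1, Twist1 and Postn), the level was 5116 and 1178 CPM in KO replicates 1 and 2, against 6606 and 1092 CPM in WT replicates 1 and 2. In 2i WT cells of the line the same sum was 9.71 and 3.03 CPM. The mesenchymal signal followed the replicate number and not the genotype, and its part in the results was not tested. In bulk RNA, fewer cells of a type and less RNA per cell cannot be told apart.

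Naive markers stood far below their 2i level, with primed and mesenchymal markers beside them. The 6 primed markers (Fgf5, Otx2, Dnmt3b, Pou3f1, Sox3 and Zic2) summed to 531 and 409 CPM in KO cells, against 448 and 523 CPM in WT cells, and to 86.4 and 151 CPM in 2i WT cells. FCS WT cells of the line had a higher primed sum, at 735 and 672 CPM, so this sum does not set EpiSC apart from FCS cells. The 6 naive markers (Zfp42, Klf2, Klf4, Esrrb, Tfcp2l1 and Tbx3) summed to 21.5 and 38.1 CPM in KO and 17.3 and 36.3 CPM in WT cells, against 3258 and 3538 CPM in 2i WT cells. This naive sum was 964.5 and 1603 CPM in FCS WT cells. KO and WT ranges overlapped for both sums, and none of these markers passed the test between KO and WT cells without pairs. With pairs Zfp42 was called higher (adjusted p = 0.0392), at levels below 1 CPM in each library. Pou5f1, which codes for the pluripotency factor OCT4, had 315.6 and 1023 CPM in KO cells, against 308.7 and 1544 CPM in WT cells. Sox1, an early neural gene, had 63.0 and 1.49 CPM in KO cells, against 78.6 and 3.03 CPM in WT cells. Both genes again split by replicate number.

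**Figure D1:**
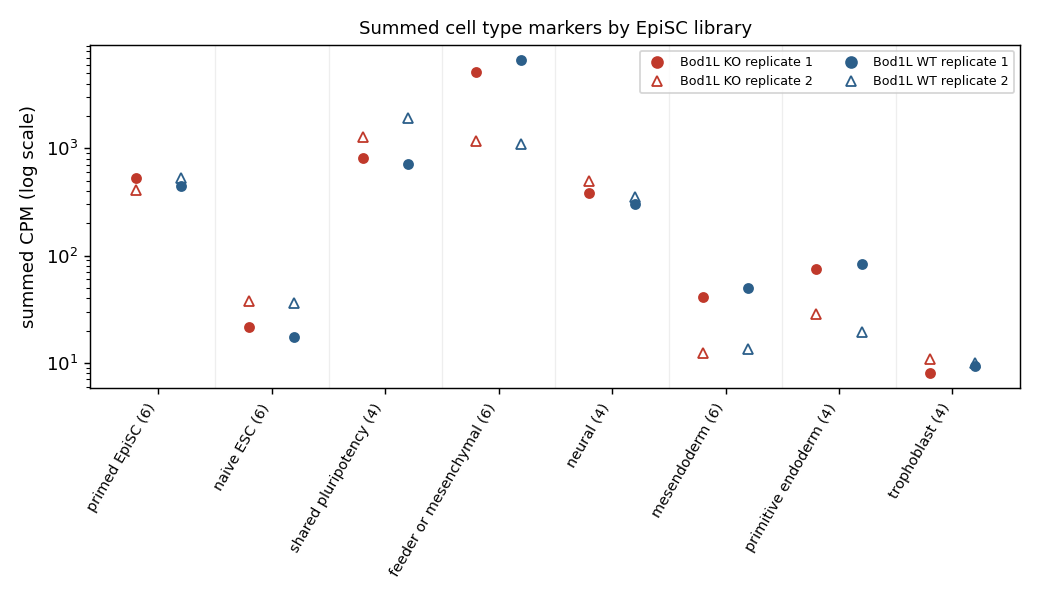
Summed CPM (log scale) of 8 sets of cell type markers, with the number of markers in brackets, in the 2 Bod1L KO and 2 Bod1L WT libraries of EpiSC. Filled circles are replicate 1 and open triangles replicate 2; the feeder or mesenchymal sum is 5116 and 6606 CPM in the replicate 1 libraries and 1178 and 1092 CPM in the replicate 2 libraries.

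Bod1l itself was strongly lowered in KO cells, as the genotype labels say. Bod1l (ENSMUSG00000061755, GRCm38 chromosome 5, 41787538 to 41844315) had 37.8 and 50.2 CPM in KO cells, against 174 and 166 CPM in WT cells, which is 25.8% of WT. Both KO libraries lay far below both WT libraries, and the gene total also counts exons outside a deletion. The log2 fold change was -1.95 ± 0.244 (SE; edgeR adjusted p = 1.95e-04). Of 19 COMPASS genes tested, Bod1l, the targeted gene, was the only one called. Over all genes 0.43% were called lower and 0.00851% higher, so the lack of other calls is no result about the list. Setd1a, which codes for the methyltransferase of the complex, had 31.4 and 41.2 CPM in KO cells, against 42.0 and 36.7 CPM in WT cells, with overlapping groups. Cxxc1 and Wdr82, for subunits that SETD1A shares with SETD1B, had log2 fold changes of -0.10 and -0.10, and Bod1, the shorter relative of Bod1l, had -0.24. The other COMPASS members lay between -0.43 (Hcfc1) and 0.23 (Kmt2a), with a median of -0.10 over the list against 0.06 over all genes tested.

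Most of the genes called between EpiSC without Bod1L and WT EpiSC were lower in the KO cells, both without and with replicate numbers as pairs. Of 23501 genes tested, 101 fell (0.43%) and 2 rose (0.00851%) at an edgeR adjusted p below 0.05. The 101 genes, Bod1l included, kept between 8.51% and 55.3% of their WT level (median 28.8%), and 36 of them were below 25%. They were expressed at a median of 22.6 CPM in WT cells, against 17.0 CPM for all protein-coding genes tested. They lay on all 19 autosomes and the X chromosome, and 94 were annotated as protein-coding. In each of the 101 genes both KO libraries were below both WT libraries, a pattern seen in 11.5% of all genes tested and favoured here by the call itself. Within replicate 1 the 100 genes other than Bod1l had a median log2 ratio of -1.55, and within replicate 2 of -1.69, from single libraries and with 0.5 CPM added.

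With replicate numbers as pairs, 384 genes were called lower (1.63%) and 131 higher (0.557%), and all 101 were among the 384. DESeq2 called 244 lower (1.04%) and 10 higher (0.0426%), again with all 101 among the lower. The 101 calls rest on a spread estimated over all 36 libraries: a fit of the 12 EpiSC libraries called 4 genes (Bod1l, Det1 and Ccdc191 among them), and a fit of the 4 compared libraries called 0 with edgeR (522 genes below an unadjusted p of 0.05). Without KO replicate 1, KO replicate 2, WT replicate 1 or WT replicate 2, the number called lower was 40, 10, 39 and 46, and all 101 stayed below 0 in every one of these fits. Bod1l, Ccdc191, Det1, Foxred1, Gatb and Thap6 were among those that kept their calls in all 4 of those fits.

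**Figure D2:**
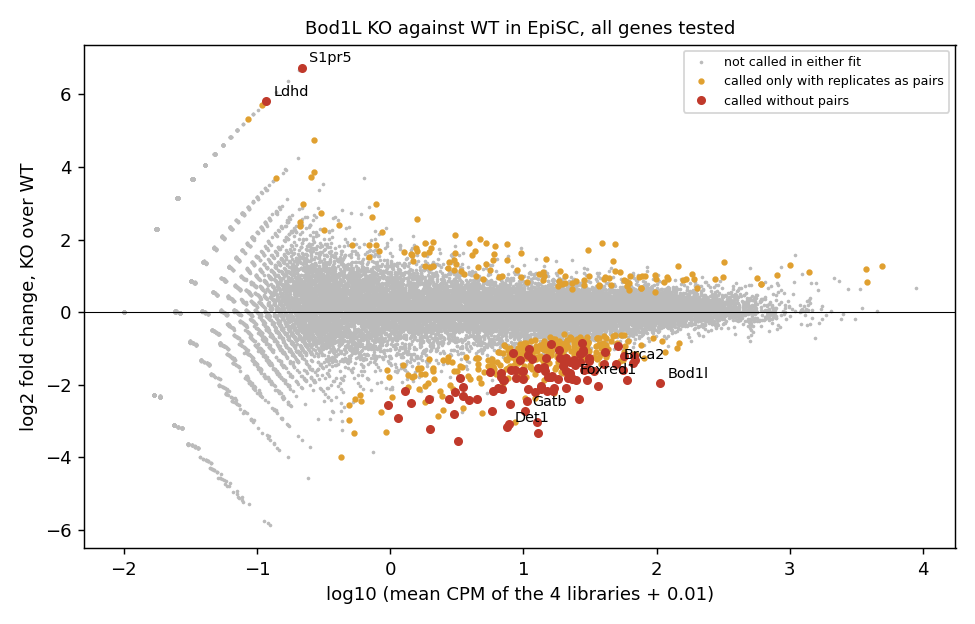
Log2 fold change of KO over WT against the mean level of the 4 EpiSC libraries (log10 scale) for 23501 genes; red points are the genes called without pairs, orange points those called only with replicate numbers as pairs, and grey points the rest. The 101 lowered genes spread over a wide range of levels, and the 2 called higher (S1pr5 and Ldhd) are at the low end.

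RefSeq promoters (GRCm38.p6) were matched by symbol for 76 of the 101 lowered genes. Those of 6 lowered genes are printed as examples. Each runs 5′ to 3′ on the strand of its gene, from 250 bases before to 50 bases after the start. Capitals mark matches on either strand to the core letters of 5 motifs: ETS (CCGGAAG or CTTCCGG), NRF1 (GCGCATG or CATGCGC), NFY (CCAAT or ATTGG), YY1 (AAGATGG or CCATCTT) and CRE (TGACGT or ACGTCA). Det1 lies at chr7:78847162-78847461 on the minus strand, Cbr4 at chr8:61487484-61487783 on the plus strand, Alg8 at chr7:97371367-97371666 on the plus strand, Fignl1 at chr11:11808913-11809212 on the minus strand, Palb2 at chr7:122132897-122133196 on the minus strand and Wdr93 at chr7:79742899-79743198 on the plus strand. Det1, Cbr4 and Alg8 are shown as strongly lowered genes with different layouts, Fignl1 as a repair gene with its NRF1 match near the start, and Palb2 and Wdr93 because a neighbouring gene starts in the same stretch on the other strand. Each of the 6 holds a marked motif, while lowered genes such as Ak8 and Fan1 have none of the 5, so the 6 do not stand for all lowered genes.
Det1: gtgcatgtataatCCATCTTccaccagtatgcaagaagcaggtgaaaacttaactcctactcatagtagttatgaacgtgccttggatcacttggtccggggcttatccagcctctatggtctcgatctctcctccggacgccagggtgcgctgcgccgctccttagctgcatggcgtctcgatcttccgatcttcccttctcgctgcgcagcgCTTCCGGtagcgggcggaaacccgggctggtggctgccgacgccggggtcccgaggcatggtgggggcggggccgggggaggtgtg
Cbr4: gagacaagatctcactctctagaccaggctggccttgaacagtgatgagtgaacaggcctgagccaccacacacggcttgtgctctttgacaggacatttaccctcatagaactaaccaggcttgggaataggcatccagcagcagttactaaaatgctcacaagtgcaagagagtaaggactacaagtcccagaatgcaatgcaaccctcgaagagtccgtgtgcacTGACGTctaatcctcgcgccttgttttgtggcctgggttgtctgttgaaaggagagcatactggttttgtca
Alg8: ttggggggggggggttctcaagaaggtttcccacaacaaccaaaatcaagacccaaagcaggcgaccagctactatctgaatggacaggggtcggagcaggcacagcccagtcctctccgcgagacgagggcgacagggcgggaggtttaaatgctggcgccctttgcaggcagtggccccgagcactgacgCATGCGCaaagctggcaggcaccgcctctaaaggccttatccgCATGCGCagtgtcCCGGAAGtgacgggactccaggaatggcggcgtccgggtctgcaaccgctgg
Fignl1: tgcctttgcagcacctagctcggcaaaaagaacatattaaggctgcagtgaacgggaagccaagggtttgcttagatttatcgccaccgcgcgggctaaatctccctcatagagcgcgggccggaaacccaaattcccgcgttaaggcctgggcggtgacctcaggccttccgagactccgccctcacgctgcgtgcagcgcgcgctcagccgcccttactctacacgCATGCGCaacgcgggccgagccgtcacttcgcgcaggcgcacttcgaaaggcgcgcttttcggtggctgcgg
Palb2: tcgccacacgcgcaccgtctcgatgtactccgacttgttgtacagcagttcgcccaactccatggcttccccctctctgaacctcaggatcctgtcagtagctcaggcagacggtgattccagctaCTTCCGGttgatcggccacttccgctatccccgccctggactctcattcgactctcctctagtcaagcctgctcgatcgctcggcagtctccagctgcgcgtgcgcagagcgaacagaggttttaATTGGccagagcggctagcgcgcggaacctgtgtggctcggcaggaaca
Wdr93: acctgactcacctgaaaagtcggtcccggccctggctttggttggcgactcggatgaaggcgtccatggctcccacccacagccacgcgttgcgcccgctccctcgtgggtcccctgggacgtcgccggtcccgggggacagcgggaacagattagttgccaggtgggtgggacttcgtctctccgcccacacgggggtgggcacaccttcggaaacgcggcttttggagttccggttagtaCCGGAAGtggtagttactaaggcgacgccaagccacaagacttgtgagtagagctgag

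Of these 6 promoters 5 hold 20 to 34 CpG dinucleotides, and that of Cbr4 holds 6. Among the 72 lowered protein-coding genes with a promoter the median was 21 CpG, against 19 for 12831 protein-coding genes tested. The ETS letters occurred in 27.8% of the lowered and 15.4% of all tested protein-coding promoters, and the NRF1 letters in 18.1% and 6.27%. NFY letters occurred in 30.6% and 38.6%, YY1 letters in 11.1% and 6.62%, and CRE letters in 13.9% and 10.6%. The GC box (GGGCGG or CCGCCC) was found in 66.7% and 59.4%, and the TATA letters (TATAAA or TTTATA) in 6.94% and 8.07%. None of these motifs contains another, though ETS and YY1 matches can share the letters AAG or CTT. These are counts of letters in a window and not of bound sites.

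The lowest genes were a mixed group of enzymes, repair factors, transporters and unnamed transcripts. Det1, which codes for an adaptor of a COP1 ubiquitin ligase, had 1.59 and 1.43 CPM in KO cells, against 14.8 and 12.4 CPM in WT cells (-3.17 ± 0.28; adjusted p = 1.99e-06). This was the smallest adjusted p of all genes. Cbr4, for a mitochondrial carbonyl reductase, had 3.55 and 1.94 CPM in KO cells, against 23.4 and 21.8 CPM in WT cells (-3.04 ± 0.514; adjusted p = 0.00513). Ccdc191, for a coiled-coil protein, had 3.00 and 1.64 CPM in KO cells, against 24.7 and 22.2 CPM in WT cells (-3.33 ± 0.431; adjusted p = 2.84e-04). In all 3 genes both KO libraries lay several-fold below both WT libraries, and KO replicate 2 was the lowest library of each. Without KO replicate 2, Cbr4 lost its call (adjusted p = 0.233).

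Alg8, for a glucosyltransferase that builds the sugar precursor of N-glycans, had 3.12 and 3.52 CPM in KO cells, against 20.1 and 15.9 CPM in WT cells (-2.44 ± 0.517; adjusted p = 0.0306). Anapc13, for a subunit of the anaphase-promoting complex, had 6.77 and 5.22 CPM in KO cells, against 29.7 and 24.5 CPM in WT cells (-2.18 ± 0.43; adjusted p = 0.0176). Both genes had separate groups, and both lost the call without any 1 of the 4 libraries (adjusted p 0.0711 to 0.391 for Alg8 and 0.0548 to 0.418 for Anapc13). Mfsd4b4, for a transporter of the major facilitator family with close copies nearby, had 2.97 and 1.73 CPM in KO cells, against 18.3 and 8.79 CPM in WT cells, and reads from its copies make its identity uncertain. Mfsd3, of the same superfamily, fell by 2.40. Wdr93, for a WD-repeat protein, fell by 2.38, the adenylate kinase gene Ak8 fell by 2.56, and Cyb5rl, for a cytochrome b5 reductase-like protein, by 2.20. Ccdc62, for a coiled-coil protein, had 0.398 and 0.364 CPM in KO cells, against 3.14 and 4.01 CPM in WT cells (-3.22).

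Unnamed or non-coding transcripts made up much of the rest of the 25 lowest. 2310039H08Rik had the lowest fold change of all called genes, with 0.735 and 0.273 CPM in KO cells, against 8.47 and 3.38 CPM in WT cells (-3.54 ± 0.653; adjusted p = 0.0101). The non-coding genes were A930037H05Rik (-2.72), A330035P11Rik (-2.50), C920006O11Rik (-2.42), 2310009A05Rik (-2.38) and the antisense gene 0610040B10Rik (-2.18). C330018D20Rik (-3.08), BC049715 (-2.93), BC025920 (-2.31) and D3Ertd751e (-2.18) are annotated as protein-coding without a named function here. Each of the lowest 25 genes had both KO libraries below both WT libraries.

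**Figure D3:**
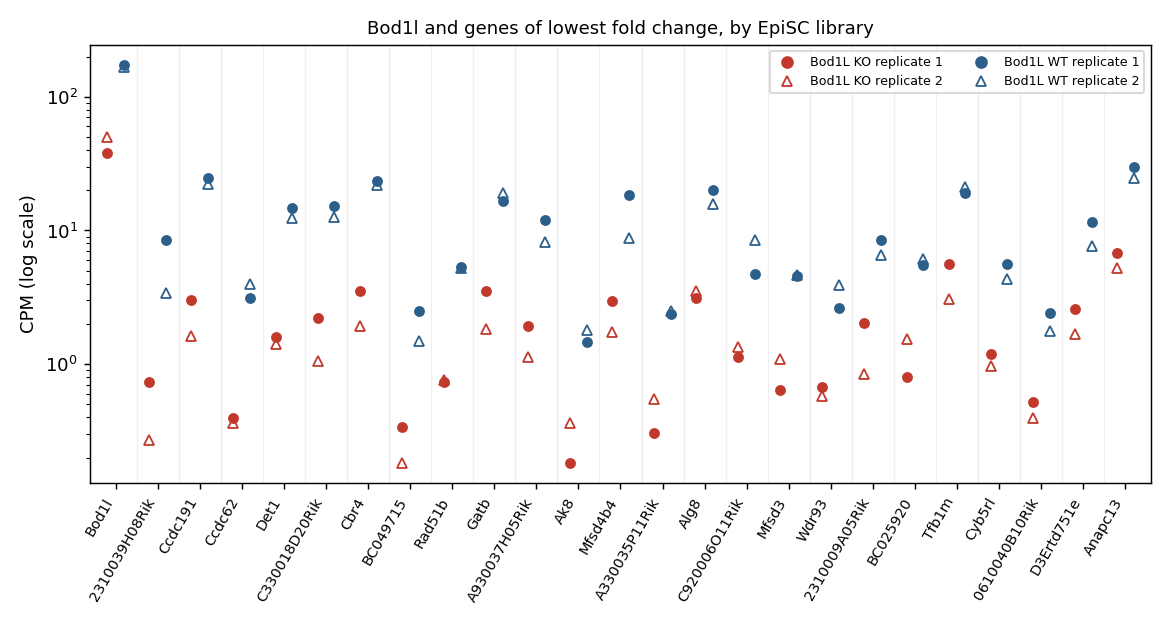
CPM (log scale) of Bod1l and of 24 of the 25 called genes with the lowest fold change in each EpiSC library, KO in red and WT in blue, with filled circles for replicate 1 and open triangles for replicate 2. In all 25 genes drawn both red points lie below both blue points.

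Genes of DNA repair were among the lowered genes in every branch listed, while most repair genes were not called. Over 4 lists with 129 genes tested, 10 fell and 0 rose with edgeR (27 below an unadjusted p of 0.05; 17 lower with DESeq2 and 23 with replicate pairs). Of all genes tested, 0.43% were called lower with edgeR, 1.04% with DESeq2 and 1.63% with pairs. The median of these genes was -0.06, and 74 of the 129 were below 0 (57.4%, against 40% of all genes tested). In homologous recombination 5 of 46 fell. Rad51b, for a recombination protein, had 0.735 and 0.759 CPM in KO cells, against 5.33 and 5.21 CPM in WT cells (-2.81 ± 0.572; adjusted p = 0.0223). Brca2, for a core factor of recombination that binds DNA, had 25.3 and 28.3 CPM in KO cells, against 80.5 and 65.0 CPM in WT cells (-1.44 ± 0.285; adjusted p = 0.0176). Palb2, for the partner that joins BRCA2 to BRCA1, had 11.1 and 11.3 CPM in KO cells, against 20.8 and 20.7 CPM in WT cells (-0.89 ± 0.196; adjusted p = 0.039). All 3 groups of libraries were separate, and the replicates of Palb2 nearly coincided. Fignl1, for an ATPase of recombination, fell by 1.43 ± 0.233, and Babam2, of the BRCA1-A complex, by 1.33 ± 0.251.

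With replicate pairs 4 more recombination genes were called lower: Rad51c, Rad50, Mcm8 and Abraxas1. Rad51c, another recombination gene, had 9.58 and 2.67 CPM in KO cells, against 28.7 and 16.4 CPM in WT cells (-1.88; adjusted p = 0.242 without pairs and 2.86e-04 with pairs). Brca1 itself had 95.7 and 99.8 CPM in KO cells, against 95.8 and 71.4 CPM in WT cells, with overlapping groups. Without 1 library, Rad51b lost its call in each case (adjusted p 0.0777 to 0.391), as did Palb2 (0.153 to 0.399), Brca2 kept it only without WT replicate 2 (0.0483), Babam2 only without WT replicate 1 (0.0434) and Fignl1 lost it without KO replicate 2 (0.191).

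Excision, mismatch and end-joining repair, crosslink repair and the damage checkpoint held called genes as well. Ercc6l2, for a helicase-like repair protein, fell by 1.61 ± 0.228, with 17.9 and 15.6 CPM in KO cells, against 49.7 and 52.7 CPM in WT cells. It was among the 2 called of 45 genes of excision, mismatch and end-joining repair, and with pairs 10 of the 45 were called lower, including Ogg1 (-1.48), Nthl1 (-1.57), Mlh3 (-1.01) and Xrcc4 (-0.91). Of 18 Fanconi anaemia genes, Fancd2, the factor that is ubiquitinated at crosslinks, had 37.4 and 31.9 CPM in KO cells, against 77.5 and 82.4 CPM in WT cells (-1.21 ± 0.258; adjusted p = 0.0314), and the nuclease gene Fan1 fell by 1.78 ± 0.371. Of 20 damage checkpoint genes, Rad1, for a subunit of the checkpoint clamp, fell by 1.27 ± 0.232, with 11.2 and 11.0 CPM in KO cells, against 24.0 and 29.5 CPM in WT cells. Rad9b, a relative of the clamp gene Rad9a, fell by 2.11, and Slx4ip, for a partner of the SLX4 nuclease scaffold, by 2.08. Ercc6l2 lost its call without KO replicate 2 (adjusted p = 0.065). Fancd2, Fan1 and Rad9b lost theirs in all 4 such fits (0.129 to 0.497, 0.0574 to 0.54 and 0.0952 to 0.481), Rad1 in 3 of them (highest 0.222) and Slx4ip without KO replicate 2 (0.0502).

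The lists of replication genes and of cyclins and mitotic genes held 0 members called without pairs, where 0.43% of all genes were called lower, so these counts are no result about the lists. Called genes outside them act in mitosis too, such as Anapc13, Anapc15 and Haus1. Of 44 replication genes edgeR called 0 (2 below an unadjusted p of 0.05; Orc5, at -1.03, with DESeq2 and with pairs), and their median was 0.04 with 16 below 0. Of 26 cyclin and mitosis genes edgeR called 0 (0 below an unadjusted p of 0.05; 0 with DESeq2 and 0 with pairs), with a median of 0.14.

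Genes for mitochondrial gene expression recurred among the lowered genes. Of 72 genes of mitochondrial translation 5 fell and 0 rose (12 lower with pairs; 0.43% and 1.63% of all genes were called lower in these fits), with a median of -0.16, and in 33.3% of them both KO libraries lay below both WT libraries, against 11.5% of all genes. Gatb, for a subunit of the mitochondrial glutamyl-tRNA amidotransferase, had 3.52 and 1.82 CPM in KO cells, against 16.7 and 18.9 CPM in WT cells (-2.74 ± 0.319; adjusted p = 8.54e-05). The mitochondrial aminoacyl-tRNA synthetase genes Ears2 and Iars2 fell by 2.10 and 1.32. Mrpl11 and Mrpl24, for proteins of the large mitochondrial ribosomal subunit, fell by 1.59 and 1.20 (Mrpl24 is outside the list). In each of these genes the groups were separate. Gatb kept its call without any 1 library, Ears2 lost it without KO replicate 2 (adjusted p = 0.116), and Iars2 and Mrpl11 lost it in all 4 such fits (highest 0.227 and 0.502).

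Other called genes act in the same organelle and were grouped after their values were seen. Tfb1m, for a methyltransferase of mitochondrial ribosomal RNA, had 5.63 and 3.10 CPM in KO cells, against 19.2 and 21.3 CPM in WT cells (-2.21). Mgme1, for a mitochondrial exonuclease that processes mitochondrial DNA, fell by 1.68, Mtg1, for a GTPase of ribosome assembly, by 1.41, Taco1, an activator of COX1 translation, by 1.58, and Supv3l1, for a mitochondrial RNA helicase, by 0.85. Foxred1, for an assembly factor of respiratory complex I, had 10.5 and 9.68 CPM in KO cells, against 32.0 and 40.6 CPM in WT cells (-1.84 ± 0.205; adjusted p = 7.69e-05). It was the 1 gene called of 42 for complex I and its assembly (0.43% of all genes were called lower). The median of the 42 was -0.20, and 32 of 42 were below 0 (76.2%, against 40% of all genes). Both KO libraries lay below both WT libraries in 42.9%, against 11.5% of all genes. With pairs Timmdc1 (-1.25) and Nubpl (-1.45), for further assembly factors, were also called (1.63% of all genes were called lower with pairs). Cox15, for haem A synthesis, fell by 1.33, Mcat, for mitochondrial fatty acid synthesis, by 2.09, and Dnaja3, for a mitochondrial chaperone, by 0.94.

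The mitochondrially encoded genes lay on the other side. All 13 had both KO libraries above both WT libraries (13.8% of all genes did), and their median log2 fold change was 0.84. Without pairs edgeR called 0 of the 13 (11 below an unadjusted p of 0.05), where 0.00851% of all genes were called higher. DESeq2 called 4 higher (mt-Nd1, mt-Nd2, mt-Nd3 and mt-Atp6), against 0.0426% of all genes. With pairs 6 were called higher, against 0.557% of all genes: mt-Nd1, mt-Nd2, mt-Nd3, mt-Co2, mt-Cytb and mt-Atp6. mt-Nd3, for a subunit of complex I, had 456 and 468 CPM in KO cells, against 219 and 138 CPM in WT cells (1.37; adjusted p = 0.00169 with pairs). mt-Atp6, for a subunit of ATP synthase, had 5240 and 8643 CPM in KO cells, against 2463 and 3318 CPM in WT cells (1.26; adjusted p = 0.00736 with pairs). The whole mitochondrial genome took 3.94% and 4.71% of counts in KO cells, against 2.41% and 2.5% in WT cells. Over the 13 genes the median was 1.18 in EpiSC labelled Setd1a KO and 0.10 in those labelled Mll2 KO, each against their WT. After Bod1L loss it was 0.44 in 2i and -0.24 in FCS. These genes are cut from shared long transcripts, so they are not 13 separate observations.

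Other lowered genes fall into smaller roles, again named after their values were seen. Coasy, for the enzyme that completes coenzyme A, had 15.5 and 10.1 CPM in KO cells, against 50.5 and 43.1 CPM in WT cells (-1.87), Mmachc, for vitamin B12 processing, fell by 1.78, Pts, for tetrahydrobiopterin synthesis, by 1.81, and Flad1, for FAD synthesis, by 1.27. Trappc9 and Trappc12, of the TRAPP vesicle tethers, fell by 1.15 and 1.39, Vps52, of the GARP tether, by 1.05, Washc3, of the WASH complex, by 1.62, and Hps1, of a lysosome-related organelle complex, by 1.79. Anapc15, another subunit of the anaphase-promoting complex, had 14.9 and 11.7 CPM in KO cells, against 32.2 and 37.3 CPM in WT cells (-1.39 ± 0.217; adjusted p = 0.00267). Taf6, for a subunit of the general transcription factor TFIID, had 28.7 and 26.6 CPM in KO cells, against 90.9 and 76.9 CPM in WT cells (-1.60 ± 0.261; adjusted p = 0.00377). Ikbkg, for the NEMO subunit of the NF-kappaB kinase, fell by 1.57, and Nprl3, for a subunit of the amino acid sensor GATOR1, by 1.85. Gemin6, of the SMN complex, fell by 1.86, Lsm10, of the U7 particle, by 1.31, and Adat1, for a tRNA adenosine deaminase, by 1.04. Of 30 N-glycan genes 2 fell, Alg8 among them (Alg1 as well with pairs), where 0.43% of all genes were called lower (1.63% with pairs). The median of the list was 0.19, and 12 of the 30 had both KO libraries above both WT libraries, against 13.8% of all genes.

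Per kilobase of exon, the lowered genes with the highest WT level were Cnpy2, Mrpl24, Psmg2, Haus1 and Ascc1. Cnpy2, for an endoplasmic reticulum protein, stood at 95.2 CPM per kb in WT cells, and in CPM it had 47.2 and 26.3 in KO cells, against 110.8 and 82.8 in WT cells (-1.40 ± 0.266; adjusted p = 0.0129). Mrpl24 followed at 41.9 CPM per kb, Psmg2, for a chaperone of proteasome assembly, at 33.8, Haus1, for a subunit of the spindle complex augmin, at 29.1, and Ascc1, of the ASCC complex that acts on ribosomes and alkylated DNA, at 24.7. Psmg2, Haus1 and Ascc1 lost their calls without any 1 library (highest adjusted p 0.591, 0.418 and 0.418), Cnpy2 without KO replicate 2 or WT replicate 1 (0.439 and 0.202) and Mrpl24 without each library but WT replicate 1 (highest 0.232).

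The 2 genes called higher were barely detected. S1pr5, for a sphingosine-1-phosphate receptor, had 18 and 9 counts in KO cells, against 0 and 0 counts in WT cells, and was at least 8.96-fold higher when 3 counts over the WT group are taken as the floor. Ldhd, for D-lactate dehydrogenase, had 12 and 2 counts in KO cells, against 0 and 0 counts in WT cells (at least 4.65-fold higher on the same floor). WT cells of the other lines held counts of both: 6 and 6 of S1pr5 and 25 and 14 of Ldhd in Setd1a WT, and 9 and 15 of S1pr5 and 8 and 8 of Ldhd in Mll2 WT EpiSC. S1pr5 lost its call without any 1 of the 4 libraries (adjusted p 0.098 to 0.266), and Ldhd kept it only without KO replicate 2 (0.0428). DESeq2 gave Ldhd an adjusted p of 0.0687 and S1pr5 none.

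Of the 131 genes called higher with pairs, 58 had both KO libraries above both WT libraries, as did 13.8% of all genes tested. Members of the signalling and stress lists were among them. Nodal, the ligand that acts through Activin receptors, had 72.5 and 147 CPM in KO cells, against 21.8 and 89.0 CPM in WT cells (adjusted p = 0.0204 with pairs and 1 without). Its coreceptor gene Tdgf1 had 364 and 1133 CPM in KO cells, against 90.3 and 686 CPM in WT cells (adjusted p = 0.00706 with pairs). In both genes KO exceeded WT within each replicate number, and the groups overlapped across numbers. Of 18 Nodal and Activin genes 15 were above 0, against 13314 of all 23501 genes. Their median was 0.29, against 0.06 over all genes. Without pairs edgeR called 0 of the 18 (0 below an unadjusted p of 0.05 and 0 with DESeq2), and with pairs it called 2 higher. Over all genes 0.00851% were called higher without pairs and 0.557% with pairs, so the 0 is no result about the list. Lefty1, a Nodal inhibitor and target, had 1031 and 374.5 CPM in KO cells, against 324 and 285 CPM in WT cells, and was called in neither fit (1.21; adjusted p = 0.576 with pairs).

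Targets of p53 were also mostly above 0, with a median of 0.35 and 17 of 22 above 0, against 13314 of all 23501 genes. Both KO libraries lay above both WT libraries in 13.6% of them, against 13.8% of all genes. Without pairs edgeR called 0 of them (5 below an unadjusted p of 0.05 and 0 with DESeq2). Of all genes 0.00851% were called higher without pairs and 0.557% with pairs. With pairs Mdm2, for the ubiquitin ligase that degrades p53, and Perp, for a desmosome protein, were called higher (adjusted p = 0.00539 and 0.00353). Mdm2 had 188 and 526 CPM in KO cells, against 85.9 and 291 CPM in WT cells. Perp had 75.6 and 426.5 CPM in KO cells, against 26.2 and 216 CPM in WT cells. Cdkn1a, the p21 gene, had 276 and 238.5 CPM in KO cells, against 175 and 250 CPM in WT cells, with overlapping groups (0.27; adjusted p = 1). The 22 genes of the integrated stress response had a median of -0.17, with 16 below 0 (72.7%, against 40% of all genes tested). Hspa5, for the chaperone BiP, was the 1 of them called with pairs or with DESeq2. It had 969 and 1176 CPM in KO cells, against 491.5 and 567 CPM in WT cells, with separate groups (1.02; adjusted p = 0.173 without pairs, 0.0104 with pairs and 0.0344 with DESeq2).

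Of 119 pluripotency and lineage genes tested, edgeR without pairs called 0 (1 below an unadjusted p of 0.05 and 0 with DESeq2). Over all genes 0.43% were called lower and 0.00851% higher in this fit, so the 0 is no result about these genes. With pairs the called members were Fgf4 and Tdgf1 of 14 core genes, Cldn6 of 19 formative and primed genes and Zfp42 of 17 naive genes, all higher, and Hes5 of 16 neural genes, lower (0.557% of all genes were called higher and 1.63% lower with pairs). Fgf4, a growth factor of pluripotent cells, had 7.23 and 182 CPM in KO cells, against 1.85 and 117 CPM in WT cells. Zfp42, the naive gene known as Rex1, had 0.306 and 0.364 CPM in KO cells, against 0.0697 and 0.0546 CPM in WT cells, and 462 and 526 CPM in 2i WT cells. Hes5, a Notch target, had 1.01 and 0.091 CPM in KO cells, against 7.67 and 0.382 CPM in WT cells. Medians were 0.14 for core, 0.06 for formative and primed, 0.07 for naive, -0.30 for neural and -0.17 for the 20 mesenchymal and feeder genes, of which 12 were below 0. Fgf4, Cldn6, Tdgf1 and Hes5 varied more between replicate numbers than between genotypes.

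The lowered genes were followed into comparisons that used other libraries, in which the KO libraries are titled Tamoxifen as well. The 100 genes other than Bod1l had a median of -1.79 in EpiSC, where they were chosen, so that value is a description. All 100 were below 0 after Bod1L loss in 2i and in FCS, where medians were -1.38 and -1.32 and where 54 and 27 were called lower (0.366% and 0.191% of all genes were). Of the 100, 45 were called in neither 2i nor FCS and 26 in both. Ak8 and BC049715 had values of -2.56 and -2.93 in EpiSC, against -0.23 and -0.18 in 2i, the values closest to 0 there. In the EpiSC libraries labelled Setd1a KO against their WT, 94 of the 100 were called lower (1.4% of all genes were), with a median of -1.97, and BC049715 (0.42) was the 1 gene above 0. In those labelled Mll2 KO against their WT, edgeR called 0 of the 100 (0% of all genes were called lower; 1 of the 100 below an unadjusted p of 0.05, 0 with DESeq2, which called 0.149% of all genes lower, and 1 with pairs, where 1.57% were), with a median of -0.04 and 57 below 0. The gene totals of the targeted genes were little lower in these libraries, and they also count exons outside a deletion. Setd1a had 39.8 and 37.7 CPM in the libraries labelled Setd1a KO, against 48.1 and 40.9 CPM in their WT (-0.20; adjusted p = 0.791), and Kmt2b, which codes for MLL2, had 112.7 and 122 CPM in those labelled Mll2 KO, against 164 and 139 CPM in their WT (-0.36; adjusted p = 1). These levels do not check the labels of either deletion.

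**Figure D4:**
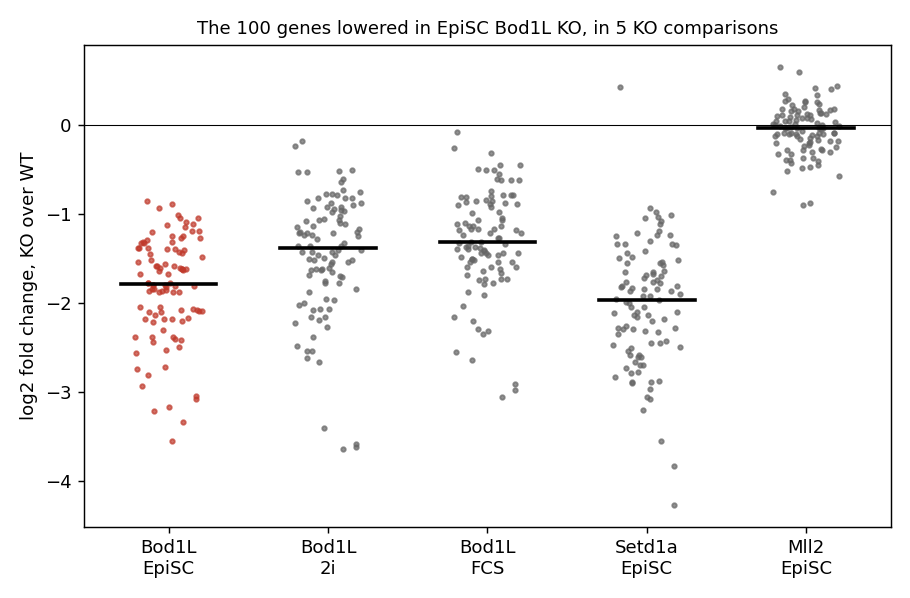
Log2 fold changes (KO over WT) of the 100 genes lowered in EpiSC Bod1L KO cells, Bod1l left out, in 5 KO comparisons; each point is a gene and each bar a median. Medians are -1.79 for Bod1L in EpiSC (where the genes were chosen), -1.38 in 2i, -1.32 in FCS, -1.97 for Setd1a and -0.04 for Mll2 in EpiSC.

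Tests of the differences themselves called few genes. Between the Bod1L effect in EpiSC and its mean over 2i and FCS, edgeR called 0 genes (459 below an unadjusted p of 0.05), DESeq2 3 (0.00851% lower and 0.00426% higher) and edgeR with pairs 4 (0.00426% lower and 0.0128% higher). Anapc15 was among the 3 by DESeq2, with log2 fold changes of -1.39 in EpiSC, -0.53 in 2i and -0.08 in FCS (difference -1.08 ± 0.261; edgeR adjusted p = 1). The 4 with pairs were Tmem63a, Chst15, Tex14 and Dcc. Tmem63a, for a mechanically gated channel, had 73.6 and 94.1 CPM in KO cells, against 35.0 and 49.0 CPM in WT EpiSC, with a log2 fold change of 1.00 in EpiSC and values below 0 in 2i (-0.63) and in FCS (adjusted p = 0.0273 with pairs). Between the Bod1L and Setd1a effects in EpiSC 1 gene differed, Bod1l itself (0.00426% lower).

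Between the Bod1L and Mll2 effects in EpiSC 10 genes differed, all lower with Bod1L loss (0.0426% of genes), among them Det1, Thap6, Foxred1, Gatb, Slx4ip, Bod1l, Fignl1, Gemin6 and Ccdc191. Det1 had log2 fold changes of -3.17 ± 0.28 with Bod1L loss and 0.12 ± 0.254 in the libraries labelled Mll2 KO (difference -3.29 ± 0.372; adjusted p = 2.06e-04). Thap6, annotated as a transcribed unitary pseudogene, had -2.13 and 0.22. Without KO replicate 2 or WT replicate 2 of the Bod1L line 1 of the 10 was called, and with pairs 343 genes differed (0.608% lower and 0.851% higher).

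Many lowered genes start beside another gene on the opposite strand. Starts lay within 1000 bp of a tested neighbour, head to head, in 45 of 94 lowered protein-coding genes (47.9%), against 2844 of 16731 tested protein-coding genes (17%). Counting all gene types it was 51 of 101 (50.5%), against 15.6% of genes tested. The window reached both ways, so pairs whose 5′ ends overlap, such as Fbxw5 with C8g, are counted too. Of the 51 neighbours edgeR called 0, where 0.43% of all genes were called lower, so this count is no result about the neighbours. An unadjusted p below 0.05 was found for 8 of them, against 1146 of all 23501 genes. DESeq2 called 3 lower, against 1.04% of all genes. With pairs Sclt1, Cep63, C8g and Dcaf17 were called lower, against 1.63% of all genes. The lowered genes had a median of -1.78, against -0.02 for the neighbours they face. The lowered gene was further below 0 than its neighbour in 47 of the 51 pairs, a count that its own selection favours.

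Fancd2 (-1.21) starts 30 bp from Emc3 (0.50), Taf6 (-1.60) 34 bp from Cnpy4 (0.65), and Rad1 (-1.27) 71 bp from Brix1 (0.36). Palb2 starts 56 bp from Dctn5 (-0.08), and the Dctn5 start lies 95 bases before the RefSeq start of Palb2 in the promoter printed above. Wdr93 starts 32 bp from Pex11a (0.53), whose start lies 18 bases before that of Wdr93 in its printed promoter. Dctn5, for a subunit of the dynactin motor adaptor, had 44.7 and 37.7 CPM in KO cells, against 45.9 and 41.5 CPM in WT cells, with groups that were close together. In 4 of the 51 pairs the neighbour was further below 0 than the lowered gene: 1700030K09Rik (-1.63) with Calr3 (-2.14), Fbxw5 (-1.38) with C8g (-1.56), Babam2 (-1.33) with Rbks (-1.44) and Iars2 (-1.32) with Gm37785 (-1.93). Mettl8 (-1.01) and Dcaf17 (-0.99) lay close to each other. Counting was by strand, so reads of the 2 genes of a pair were kept apart. In CPM per kb the lowered gene stood below its neighbour in WT cells in 29 of the 51 pairs (medians 4.58 and 6.37).

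**Figure D5:**
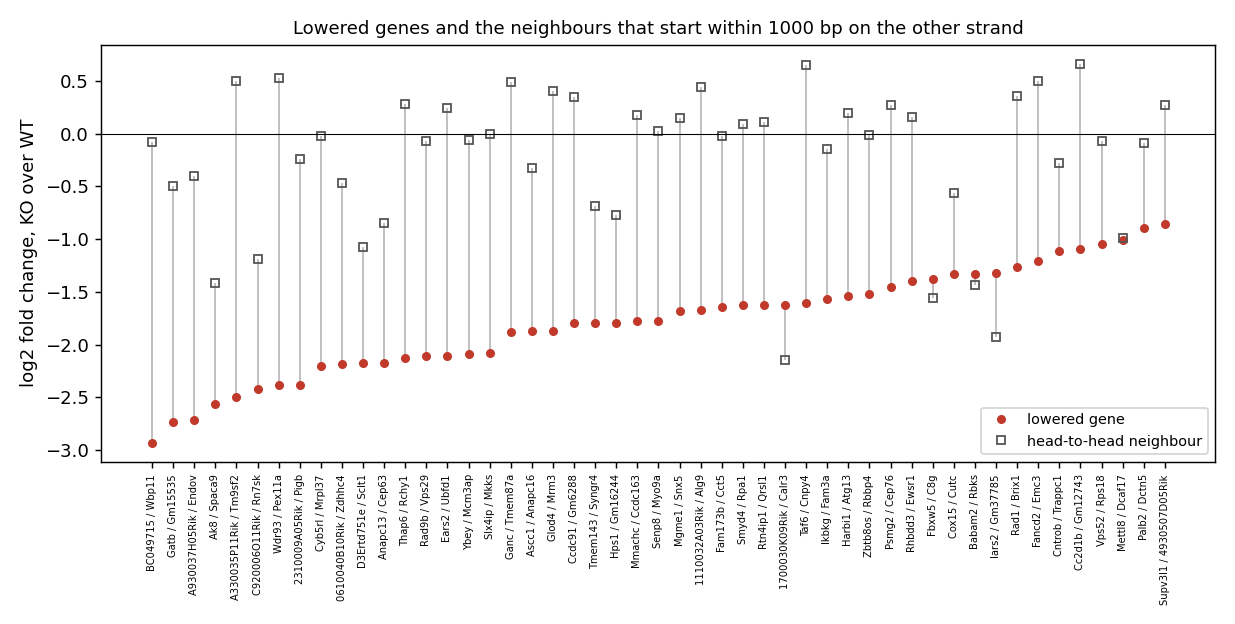
Log2 fold change (KO over WT, EpiSC) of 49 of the 51 lowered genes (filled red circles) and of the neighbour that starts within 1000 bp on the other strand (open squares), ordered by the lowered gene. The circles run from -2.93 to -0.85, and the squares have a median of -0.02.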

How the data were processed

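Total RNA was isolated with Trizol, selected for poly(A), depleted of ribosomal RNA and made into strand-specific libraries with the ScriptSeq kit, per the labels' protocols. The deposited table holds raw counts per gene, made by the authors with GSNAP and featureCounts 1.5.2 on GRCm38 (mm10), per the submitters' processing notes and the file headers. Per the file headers, reads were counted by strand from their primary alignment, at mapping quality 1 or more, on Ensembl 87 genes. The table has 49671 genes and 92 ERCC spike-ins, all at 0 counts, which were left out. Counts, intervals and floors cover counting error only, and the 4 compared libraries hold 25846320 to 34400362 counts.

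Groups came from the titles and genotype labels. The 36 libraries were fitted in edgeR 4.0.16 (R 4.3.3) with a mean for each of 18 groups, TMM factors and quasi-likelihood tests. Genes passing filterByExpr (minimum count 10) were kept, and p-values were adjusted by Benjamini-Hochberg over all 23501 genes, with a threshold of 0.05. A gene is called where it passes. CPM used TMM library sizes. Alternatives were replicate pairs, DESeq2 1.42.0, RLE factors, no filter, fewer libraries in the fit and 1 library left out. The scripts were tested on simulated counts drawn without replicate pairing. There the fit without pairs called 7 of 100 genes lowered 2-fold and 63 of 100 lowered 4-fold. With pairs it called 0 and 44. Most genes lowered 2-fold were thus missed, so a count of 0 called does not exclude such changes.

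Replicate numbers were taken to pair the libraries from the data, since the labels state no shared day or batch. The correlation of the replicate difference in KO cells with that in WT cells over all genes was 0.737 in Bod1L EpiSC and 0.166 to 0.707 in the other 8 pairs of groups, and genes are not independent in it. Extraction or library batches were not given.

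The compared libraries and the gene lists were chosen with earlier results of these data known. The named genes are Bod1l, the 25 called genes with the lowest fold change, those called higher, called members of the lists, the COMPASS genes, the marker genes, those called in tests of differences, and the 5 called genes with the highest WT level per kilobase of exon. Some genes that this rule names are not reported here, and those named outside it were chosen after their values were seen. Of the lists not described in the text, edgeR called 0 of 23 cholesterol, 13 DNA methylation, 22 immediate-early, 21 histone, 22 Hox and Polycomb, 22 early cleavage and germline and 18 Wnt target genes, with or without pairs (0 below an unadjusted p of 0.05 and 0 with DESeq2 in each list). Over all genes 0.43% were called lower and 0.00851% higher without pairs, so these counts of 0 are no result about the lists. List entries with no match (Firrm, Brme1, Hrob, Oct6 and Dux) were not used. Promoters came from RefSeq (GRCm38.p6) and symbols and gene starts from GENCODE M21. Figures used matplotlib 3.10.9.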

Additional observations from a re-analysis of the deposited data

Results flagged for a closer look

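These results are listed because a test of the difference itself, in edgeR over all genes, found that the effect of Bod1L loss in EpiSC differed from the KO effect in EpiSC libraries labelled for another gene. Differences are the Bod1L log2 fold change minus the other one, and 2 libraries a group stand behind each.

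Against the libraries labelled Setd1a KO, Bod1l differed by -2.30 ± 0.338 (SE; adjusted p = 0.0153), with log2 fold changes of -1.95 after Bod1L loss and 0.35 in those libraries. Bod1l is the gene targeted in the Bod1L KO cells, so its differences here and below were set by the design. Against the libraries labelled Mll2 KO, Bod1l differed by -1.97 and Det1 by -3.29. The repair genes Slx4ip and Fignl1 differed by -2.25 and -1.77. The mitochondrial genes Gatb and Foxred1 differed by -2.74 and -1.81. Gemin6, of the SMN complex, differed by -2.45, the pseudogene Thap6 by -2.35 and Ccdc191 by -3.06. For these genes the adjusted p lay between 2.06e-04 for Det1 and 0.0453 for Fignl1, Gemin6 and Ccdc191.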

How the results depend on the processing

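With edgeR over 36 libraries, 101 genes were called lower and 2 higher, and the Bod1L effect differed from that in 2i and FCS for 0 genes, from the Setd1a effect for 1 and from the Mll2 effect for 10. All 101 lowered genes were below 0 in every setting run. With replicate numbers as a block these counts were 384, 131, 4, 1 and 343. DESeq2 gave 244, 10, 3, 2 and 90, and RLE factors gave 107, 2, 0, 1 and 11. Without a filter on low counts (39460 genes) they were 60, 21, 16, 9 and 34, and 43 of the 101 were still called. A fit of the 12 EpiSC libraries gave 4 lower, 0 higher and 0 differences from either Setd1a or Mll2 (788 genes below an unadjusted p of 0.05 between KO and WT). A fit of the 12 Bod1L libraries gave 0 lower, 0 higher and 0 differences between media (974 below an unadjusted p of 0.05 between KO and WT). The 4 compared libraries alone gave 0 and 0, with 2 residual degrees of freedom against 18 over 36 libraries. The same 4 with a replicate block, an alternative chosen after seeing the data, gave 640 and 282 from 1 residual degree of freedom. Leaving out each of the 4 libraries gave 10 to 46 genes lower, 0 to 4 higher, 0 differing between media, 0 to 1 from Setd1a and 1 to 13 from Mll2, where the group with 1 library borrows the spread of all groups. Except where a setting used fewer libraries or more genes, the cause of a changed count was not tested. With 2 libraries a group and no pairs, the smallest called decrease left 55.3% of the WT level, and tamoxifen and genotype cannot be told apart.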
